A study of Mus musculus with 35 samples.

Results

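Gp49a, Lilrb4, Lilrb3, Pira6, Cd300a, Cd300lb and Cd300lf encode paired immunoglobulin-like receptors, and their expression was described in hematopoietic stem/progenitor cells (HSPCs) of WT and JMJD1B-/- mice. The list of 8 receptor genes was chosen by the low RPKM of Gp49a and Lilrb4 in the JMJD1B-/- libraries of this same data set, to which family members were added, and 7 of the 8 are listed among the 11982 gene names of the expression table. Cd300ld was not analysed here. Because the choice of genes used the comparison of the genotypes, the levels and differences of these 7 genes are given as a description without a test.

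Polyadenylated RNA was sequenced from bone marrow HSPCs of WT and JMJD1B-/- mice of the strain 129P2xC57BL/6J, with 2 libraries per genotype from 2 biological replicates. JMJD1B is the histone demethylase encoded by Kdm3b, and the JMJD1B-/- mice carry a gene-trap allele that was made in embryonic stem cells. The mice of the study were adult males and females, and neither the age nor the sex of a single library is given. The paper describes age-matched littermates for its HSPC ChIP-seq and does not repeat this for the RNA libraries. The gates used to sort the HSPCs are not given in the sources used here, and the labels name no agent given to either genotype.

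Paired receptors are families of closely related cell surface proteins, encoded side by side, in which some members inhibit and others activate the cell. Inhibitory members carry tyrosine motifs (ITIMs) in a long cytoplasmic tail and recruit the phosphatases SHP-1, SHP-2 and SHIP-1. Activating members have a short tail and signal through partner chains with ITAM motifs, such as FcRgamma and DAP12. In mouse blood cells they are known mainly from mast cells, granulocytes, monocytes and macrophages, where they set the threshold of activation.

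The promoters of Gp49a, Lilrb3 and Cd300lf are shown because Gp49a was, with Lilrb4, one of the members with large differences between the genotypes, whereas the libraries of the genotypes overlapped for Lilrb3 and Cd300lf. Each sequence covers the 250 bases before the RefSeq start site, from 5′ to 3′ on the strand of the gene, in build GRCm38.p6. Gp49a lies on the plus strand (chr10:51480362-51480611, RefSeq symbol Lilr4b), Lilrb3 on the minus strand (chr7:3720383-3720632, RefSeq symbol Pirb) and Cd300lf on the minus strand (chr11:115133993-115134242). Capitals mark matches, on either strand, to the letters of GATA factors (AGATAA as well as AGATAG, and with a different first base TGATAA as well as TGATAG), of the core bound by PU.1 (GAGGAA) and of C/EBP factors (TTGCNNAA).
Gp49a: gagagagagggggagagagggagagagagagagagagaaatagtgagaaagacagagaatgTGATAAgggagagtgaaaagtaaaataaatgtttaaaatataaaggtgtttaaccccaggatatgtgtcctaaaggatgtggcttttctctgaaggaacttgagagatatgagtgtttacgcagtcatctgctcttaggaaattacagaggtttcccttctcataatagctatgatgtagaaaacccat
Lilrb3: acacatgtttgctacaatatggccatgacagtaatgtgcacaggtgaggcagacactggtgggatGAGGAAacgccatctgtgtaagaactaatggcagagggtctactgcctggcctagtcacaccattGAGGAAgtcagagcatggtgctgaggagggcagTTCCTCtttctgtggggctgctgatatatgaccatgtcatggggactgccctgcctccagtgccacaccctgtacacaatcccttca
Cd300lf: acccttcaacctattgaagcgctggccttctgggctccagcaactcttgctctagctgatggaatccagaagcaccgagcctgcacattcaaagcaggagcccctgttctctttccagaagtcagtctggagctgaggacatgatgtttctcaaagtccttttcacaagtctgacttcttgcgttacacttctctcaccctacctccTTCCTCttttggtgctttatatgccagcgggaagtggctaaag
Gp49a held 1 GATA match and no match to the other letters. Lilrb3 held 3 matches to the PU.1 core, and Cd300lf held 1. Of 32851 RefSeq promoter windows of the same length, 26.5% held a GATA match, 23.3% a PU.1 core and 9.56% a C/EBP match, so each of these letters is common. Among the other members, Cd300a held 1 PU.1 core and 1 C/EBP match, and Cd300lb held none of the letters. Promoter sequences were found for 5 of the 7 genes, and those of Lilrb4 and Pira6 were not used here.

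The depth of the libraries was estimated at 17500000 reads for WT replicate 1 and 24600000 for WT replicate 2, with 6110000 for the first and 21000000 for the second JMJD1B-/- replicate. Values are RPKM, in which reads are scaled to the length of the transcript and to the mapped reads of the library, so that genes can be compared per length. At these depths, 3 reads on 1 kb equal 0.122 to 0.491 RPKM, and such limits cover counting error only. Kdm3b had 31.0 and 24.3 RPKM in WT HSPCs but 4.00 and 4.63 RPKM in JMJD1B-/- HSPCs, in the direction of the labels. Kit, a receptor that defines HSPCs, was present in every library, at 51.6 to 92.7 RPKM. Marker genes of other cell types set single libraries apart. The 9 listed T and NK cell markers summed to 98.8 RPKM in JMJD1B-/- replicate 1 and to 19.3 to 42.6 RPKM in the other libraries, and the 9 eosinophil markers summed to 6065 and 5515 RPKM in replicate 1 of WT and JMJD1B-/- and to 1170 and 1229 RPKM in replicate 2. Each value of a member is therefore given for each library.

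Gp49a and Lilrb4 were the most abundant members in WT HSPCs and were lower in both JMJD1B-/- libraries. Gp49a is the activating member of the pair, with a short tail, and Lilrb4 (gp49B) is the inhibitory member, which carries ITIMs and restrains mast cells and other myeloid cells. Gp49a had 50.6 and 60.5 RPKM in replicates 1 and 2 of WT, and 7.30 and 1.44 RPKM in those of the knockout. Lilrb4 had 29.9 and 36.2 RPKM in WT, against 3.10 and 1.32 RPKM in the knockout. For both genes each JMJD1B-/- library lay below each WT library, and JMJD1B-/- replicate 2 was the lower of the knockout libraries. The JMJD1B-/- mean was 7.88% of the WT mean for Gp49a (4.37 ± 4.14 against 55.5 ± 7.00 RPKM, SD, n = 2 each) and 6.69% for Lilrb4 (2.21 ± 1.25 against 33.0 ± 4.51 RPKM, SD, n = 2 each). On the log2(RPKM + 0.1) scale the difference was −4.03 for Gp49a and −3.95 for Lilrb4, with an SD within genotype of 1.14 and 0.60. Of 11863 genes tested, 5 had a lower difference than Gp49a and 6 had a lower one than Lilrb4. By the estimated depths, Gp49a had 44.6 and 30.4 reads per kb in JMJD1B-/- replicates 1 and 2, and Lilrb4 had 18.9 and 27.8. The knockout values of both genes therefore rest on few reads.

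The genes of Gp49a and Lilrb4 are neighbours on chromosome 10, and their sequences are close enough for reads to be shared between them, so the split between the genes is uncertain. Within a library, the RPKM of Gp49a was 1.69 and 1.67 times that of Lilrb4 in the WT libraries. In the knockout it was 2.36 times for replicate 1 and 1.09 times for replicate 2. The ratio was thus close in the WT libraries and differed in both directions from them in the knockout libraries. In bulk RNA, fewer cells that carry a transcript and less of it per cell cannot be told apart.

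**Figure D1:**
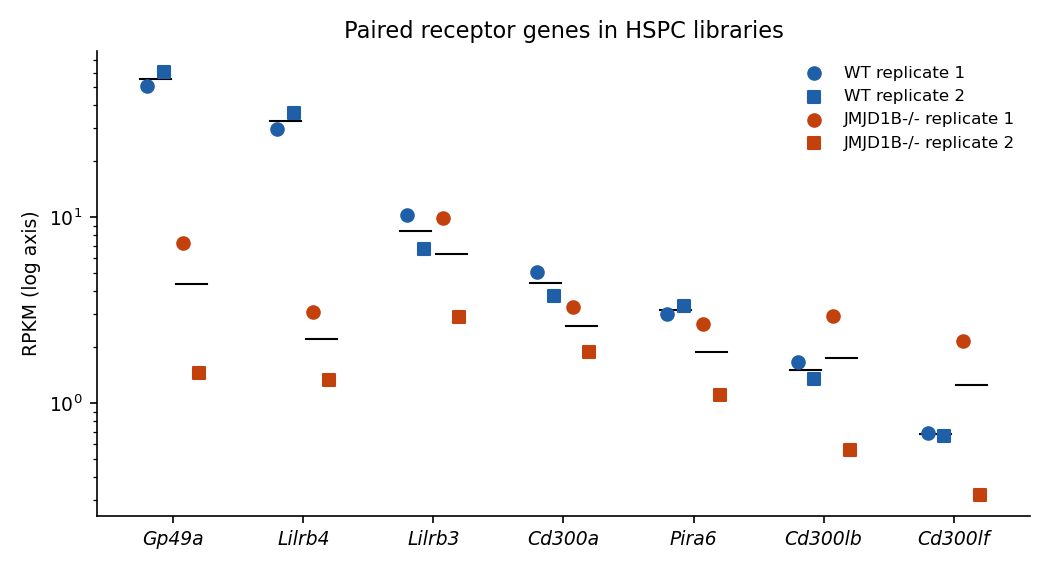
RPKM (log axis) of the 7 paired receptor genes in each of the 4 HSPC libraries, with blue for WT, orange for JMJD1B-/-, circles for replicate 1, squares for replicate 2 and black bars for the mean of each genotype. Gp49a and Lilrb4 lie at 29.9 to 60.5 RPKM in WT and at 1.32 to 7.30 RPKM in JMJD1B-/-, whereas the genotypes overlap for Lilrb3, Cd300lb and Cd300lf.

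Lilrb3 and Pira6 are the inhibitory and an activating member of the PIR family on chromosome 7. Lilrb3 (PIR-B) binds MHC class I and restrains myeloid and B cells, and the Pira genes encode activating receptors that pair with FcRgamma. Lilrb3 had 10.2 and 6.71 RPKM in WT HSPCs but 9.85 and 2.89 RPKM in JMJD1B-/- HSPCs. The genotypes overlapped, because JMJD1B-/- replicate 1 lay between the WT libraries and replicate 2 lay below them. The difference of Lilrb3 was −0.62 on the log2 scale (SD within genotype 0.92), and it was 0.25 without JMJD1B-/- replicate 2. Pira6 had 3.003 and 3.33 RPKM in replicates 1 and 2 of WT, and 2.67 and 1.11 RPKM in those of the knockout. Both knockout libraries lay below the WT libraries, replicate 1 by a small margin, and the difference of −0.84 (SD within genotype 0.60) was −1.44 without JMJD1B-/- replicate 1 and −0.24 without replicate 2.

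Pira6 is 1 of 6 Pira genes in the table, whose near-identical sequences can share reads, so that none of the 6 levels is certain alone. Their summed level was 33.5 and 37.7 RPKM in WT, and 29.4 and 9.62 RPKM in replicates 1 and 2 of the knockout. The Pira genes as a group were thus near the WT level in 1 knockout library and far below it in the other. In all 10 listed genes of the LILR and PIR families, Gp49a and Lilrb4 made up 62.8% and 66.3% of the summed RPKM in the WT libraries and 19.1% and 16.1% in the JMJD1B-/- libraries. The summed level of the 10 genes was 128 and 146 RPKM in WT, and 54.4 and 17.2 RPKM in JMJD1B-/- replicates 1 and 2.

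Of the CD300 members, Cd300a had the highest mean level in both genotypes. Cd300a (CLM-8) is an inhibitory receptor for phosphatidylserine and phosphatidylethanolamine on mast cells and other myeloid cells. It had 5.05 and 3.75 RPKM in WT, against 3.30 and 1.88 RPKM in the knockout. The genotypes did not overlap, but WT replicate 2 and JMJD1B-/- replicate 1 were close, and the difference of −0.78 (SD within genotype 0.44) ran from −1.17 to −0.39 when single libraries were left out.

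Cd300lb (CLM-7) is an activating receptor that signals with DAP12. It had 1.67 and 1.34 RPKM in WT HSPCs but 2.95 and 0.561 RPKM in JMJD1B-/- HSPCs. Cd300lf (CLM-1) carries ITIMs, binds sphingolipids and phosphatidylserine, and is the entry receptor of murine norovirus. It had 0.693 and 0.663 RPKM in replicates 1 and 2 of WT, and 2.16 and 0.322 RPKM in those of the knockout. For both genes JMJD1B-/- replicate 1 was the highest library and JMJD1B-/- replicate 2 the lowest, with the WT libraries between them. The log2 difference was −0.17 for Cd300lb and 0.33 for Cd300lf, against an SD within genotype of 1.11 and 1.21. For Cd300lb the mean RPKM had the opposite sign, with 1.76 ± 1.69 in the knockout against 1.502 ± 0.231 in WT (SD, n = 2 each), and for neither gene did the direction of the log2 difference hold with each library left out. These genes rest on few reads, with 11.8 to 32.9 reads per kb in a library for Cd300lb and 6.77 to 16.3 for Cd300lf.

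**Figure D2:**
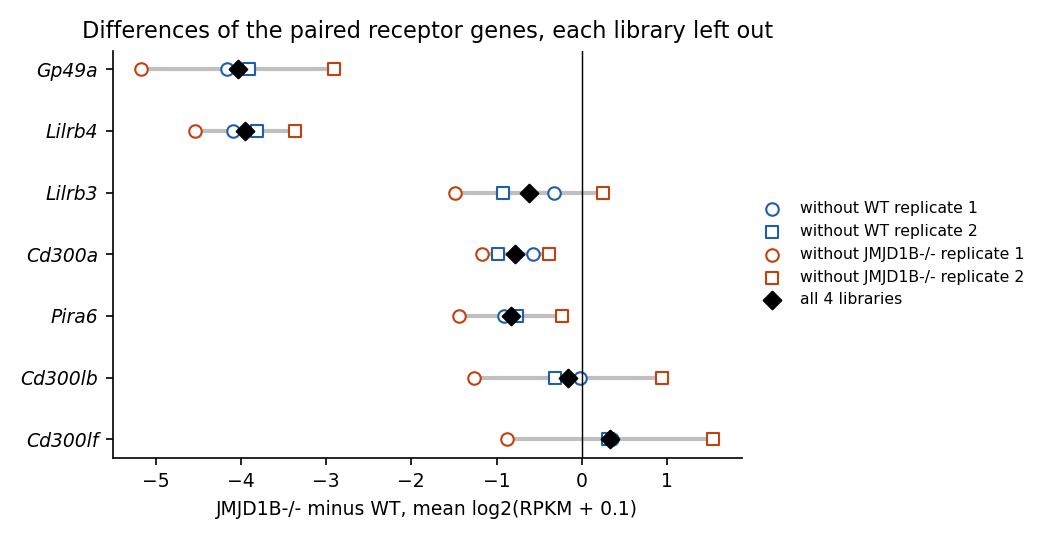
Difference of mean log2(RPKM + 0.1), JMJD1B-/- minus WT, for the 7 genes, with all 4 libraries (black diamonds) and with each library left out (open symbols, grey bars for their range). Gp49a stays between −5.17 and −2.90 and Lilrb4 between −4.53 and −3.37, whereas the bars of Lilrb3, Cd300lb and Cd300lf cross 0.

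In WT HSPCs the order of the members by level ran from Gp49a and Lilrb4 over Lilrb3, Cd300a, Pira6 and Cd300lb to Cd300lf, and the ranges of the WT libraries did not overlap between any pair of neighbours in this order. Among the genes listed, 92.8% had a lower mean RPKM in WT than Gp49a, 84.7% a lower one than Lilrb4 and 44.0% a lower one than Lilrb3. For Cd300a, Pira6, Cd300lb and Cd300lf these shares were 27.2%, 21.1%, 10.6% and 2.91%. In JMJD1B-/- HSPCs Lilrb3 had the highest mean, ahead of Gp49a, and the ranges overlapped between every pair of neighbours. Within each knockout library, however, Lilrb3 was the highest and Cd300lf the lowest member, and 4 of the 6 pairs of neighbours kept their order in both libraries.

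In 4 of the 7 genes both knockout libraries lay below those of WT, and in 0 they lay above. Over all genes tested, 22.7% lay below and 20.1% above in this sense (42.9% without overlap in either direction). The log2 difference was below 0 for 6 of the 7 genes and for 53.0% of all genes, and it was −1 or less for 2 of the 7 and for 6.79% of all genes. Nothing is read from these counts of members, since the comparison was used to choose them. In each of the 7 genes JMJD1B-/- replicate 2 was the lowest of the 4 libraries, which held for 20.3% of all genes tested. This too is a description only, since the list was chosen by low values in the knockout and some members can share reads. The gap of JMJD1B-/- replicate 2 to replicate 1 ran from −0.78 for Cd300a to −2.42 for Cd300lf on the log2 scale, and that of WT replicate 2 to WT replicate 1 from −0.60 for Lilrb3 to 0.28 for Lilrb4. The median difference of the 7 genes between the genotypes was −0.78, beside −0.025 over all genes tested, and the same limit applies to it.

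The genes whose pattern over the 4 libraries was most like that of Lilrb4 were Cd200r3, Ccl3, Mst1r, Prss34, Ccr1 and Ms4a2. Likeness was the Euclidean distance between log2(RPKM + 0.1) values, each gene centred on its own mean, over 11213 genes with a mean of at least 1 RPKM, and with 4 libraries it is a description only. The distance was 0.47 for Cd200r3, 0.49 for Ccl3, 0.54 for Mst1r, 0.74 for Prss34, 0.84 for Ccr1 and 0.97 for Ms4a2, and that of Gp49a was 0.78. Cd200r3 is an activating paired receptor of basophils and mast cells, Prss34 is a basophil protease, Ms4a2 is the beta chain of the high-affinity IgE receptor, Ccl3 is a chemokine, Ccr1 is a receptor for it and Mst1r is a receptor tyrosine kinase. Cd200r3 had 17.0 and 16.7 RPKM in WT, against 1.70 and 0.446 RPKM in the knockout, and Ccl3 had 41.3 and 47.6 RPKM in WT and 5.99 and 1.64 RPKM in JMJD1B-/-. Mst1r had 0.173 and 0.0401 RPKM in the knockout, under the level of 3 reads on 1 kb, so its distance depends on the added 0.1. The other members were far from this pattern, with distances from 3.12 for Pira6 to 3.88 for Cd300lb, and Cd300lf was under the level required.

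**Figure D3:**
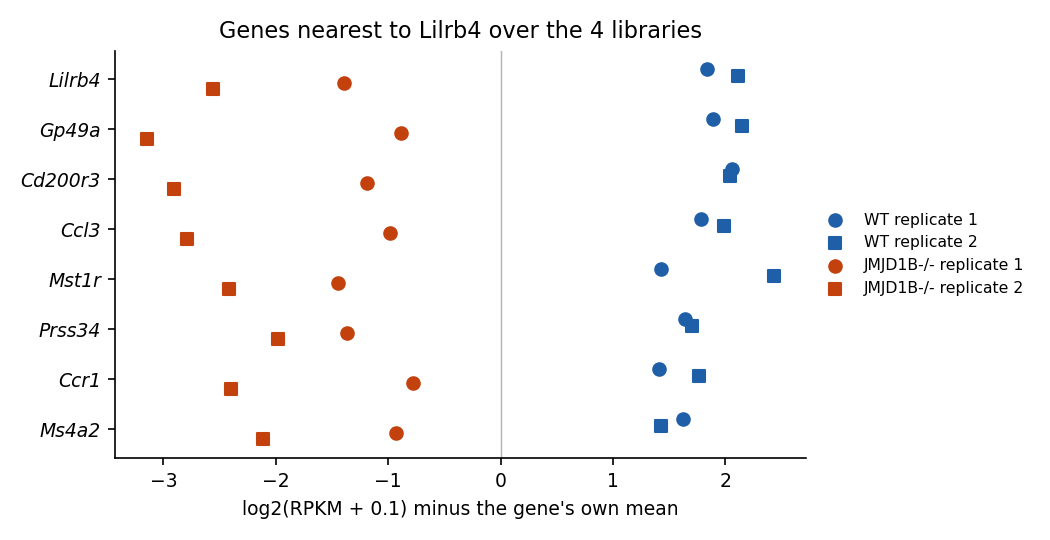
Values of log2(RPKM + 0.1) minus the gene's own mean in each library for Lilrb4, Gp49a and the 6 genes nearest to Lilrb4, with blue for WT, orange for JMJD1B-/-, circles for replicate 1 and squares for replicate 2. In every gene shown the WT libraries lie above 1 and the JMJD1B-/- libraries below 0, with JMJD1B-/- replicate 2 the lowest.

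Other paired receptors of the same kinds were counted in the comparison of all genes with limma, at an unadjusted p under 0.05. Of all genes tested, 10.1% were called in this way, 6.33% lower and 3.81% higher in the knockout, and 0.0421% passed after adjustment. Of 35 such receptors tested, 12 were called lower and 0 higher, and the median log2 difference was −1.01. The 35 include Pira1, Pira2, Pira4, Pira7 and Pira11, which can share reads with each other and with the member Pira6. Their values are therefore not separate from each other or from that member, and of them only Pira2 was called. None passed after adjustment (lowest adjusted p = 0.0714 in limma). Cd200r3 had the lowest p, with a log2 difference of −4.10 (standard error 0.54). Pecam1, an ITIM receptor of platelets, endothelium and leukocytes, had 34.0 and 33.9 RPKM in WT and 19.5 and 7.97 RPKM in JMJD1B-/- HSPCs. Cd200r4, an activating relative of Cd200r3, had 2.33 and 2.97 RPKM in WT and 0.768 and 0.251 RPKM in JMJD1B-/- HSPCs. Cd84, a receptor of the SLAM family, had 22.6 RPKM in both WT libraries and 16.0 and 8.91 RPKM in those of the knockout. The count rested on single libraries: 26 were lower and 0 higher without JMJD1B-/- replicate 1, 14 were lower and 8 higher without JMJD1B-/- replicate 2, and 3 were lower and 0 higher without either WT replicate 1 or WT replicate 2. With quantile normalization 7 were lower, and 2 when each gene was tested on its own spread alone.

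Of 36 adaptors and kinases that carry activating signals, 11 were called lower and 1 higher at an unadjusted p under 0.05 in limma, beside 6.33% and 3.81% of all genes. The median log2 difference was −0.45, and none passed after adjustment. Card9, an adaptor that links ITAM signals to NF-kB, had 34.4 and 27.9 RPKM in WT and 8.34 and 4.95 RPKM in JMJD1B-/- HSPCs, a log2 difference of −2.25 (standard error 0.29, adjusted p = 0.0714 in limma). Tec, a cytoplasmic tyrosine kinase, had a log2 difference of −1.23, Plcg2, a phospholipase of ITAM signalling, −1.07 and Vav3, a signalling protein of the Vav family, −1.002, with an adjusted p of 0.155, 0.159 and 0.348 in limma. Blk, a Src-family kinase of B cells and some T cells, was the gene called higher, at 0.613 and 0.668 RPKM in WT and 24.6 and 3.71 RPKM in JMJD1B-/- HSPCs. Its highest value was in JMJD1B-/- replicate 1, the library with the highest sum of T and NK cell markers. JMJD1B-/- replicate 2 had the lowest sum of these markers (19.3 RPKM) and more Blk than either WT library. The part of these markers in the result was not tested.

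The partner chains of the activating members were lowest in the library in which the receptors were lowest. They and the phosphatases below are named for their role after their values were seen. Fcer1g, the gene of FcRgamma, had 25.9 and 19.9 RPKM in WT HSPCs but 16.5 and 3.97 RPKM in JMJD1B-/- HSPCs, and was among the genes called lower (adjusted p = 0.469 in limma). Tyrobp, the gene of DAP12, had 32.3 and 28.0 RPKM in replicates 1 and 2 of WT, and 31.0 and 7.41 RPKM in those of the knockout, which overlapped. As in the receptors, JMJD1B-/- replicate 2 was the lowest library for both chains.

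On the inhibitory side, 1 of 15 phosphatases and adaptors was called lower and 0 higher in limma, with a median log2 difference of −0.21 and none past the adjusted threshold. Over all genes tested 6.33% were called lower and 3.81% higher, so this count is near the share of all genes and nothing is read from it. The gene called was Dok2, an adaptor that restrains myeloid signalling, at 35.9 and 18.5 RPKM in WT and 17.5 and 9.04 RPKM in JMJD1B-/- HSPCs (adjusted p = 0.459 in limma). Ptpn6, the gene of SHP-1, had 39.0 and 39.1 RPKM in WT and 34.4 and 29.4 RPKM in JMJD1B-/- HSPCs, a log2 difference of −0.30 (standard error 0.18). Inpp5d, the gene of SHIP-1, had 38.6 and 33.5 RPKM in WT and 32.6 RPKM in both JMJD1B-/- libraries, a log2 difference of −0.14 (standard error 0.18). Over the 51 adaptors, kinases and phosphatases together, 12 were called lower and 1 higher, against 6 and 1 in limma without trend, and 5 and 0 when each gene was tested on its own spread alone. Leaving out WT replicate 1 gave 3 lower, leaving out JMJD1B-/- replicate 1 gave 23 lower and 3 higher, and leaving out JMJD1B-/- replicate 2 gave 13 lower and 6 higher. Each of these fits leaves 1 library in a genotype, so nothing about the list is read from their calls.

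Over all genes tested 6.33% were called lower, and the count of the ligand list was near this share, so nothing is read from the count. Of 11 genes tested from the list of ligands and partners, 1 was called lower and 0 higher in limma. This was Itgb3, the beta chain of an integrin that binds Lilrb4, which had 60.4 and 67.3 RPKM in WT and 38.8 and 38.4 RPKM in JMJD1B-/- HSPCs, a log2 difference of −0.72 (standard error 0.17, adjusted p = 0.258 in limma). Itgb3 is also a gene of platelets and megakaryocytes, and of the megakaryocyte markers Pf4, Vwf and Itga2b were called lower as well, with log2 differences of −1.39, −0.87 and −0.64 (adjusted p = 0.203, 0.211 and 0.431 in limma), whereas Gp1bb and Gp9 were not called, at −0.04 and −0.03. Their part in the value of Itgb3 was not tested. The count of the ligand list changed when single JMJD1B-/- libraries were left out.

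**Figure D4:**
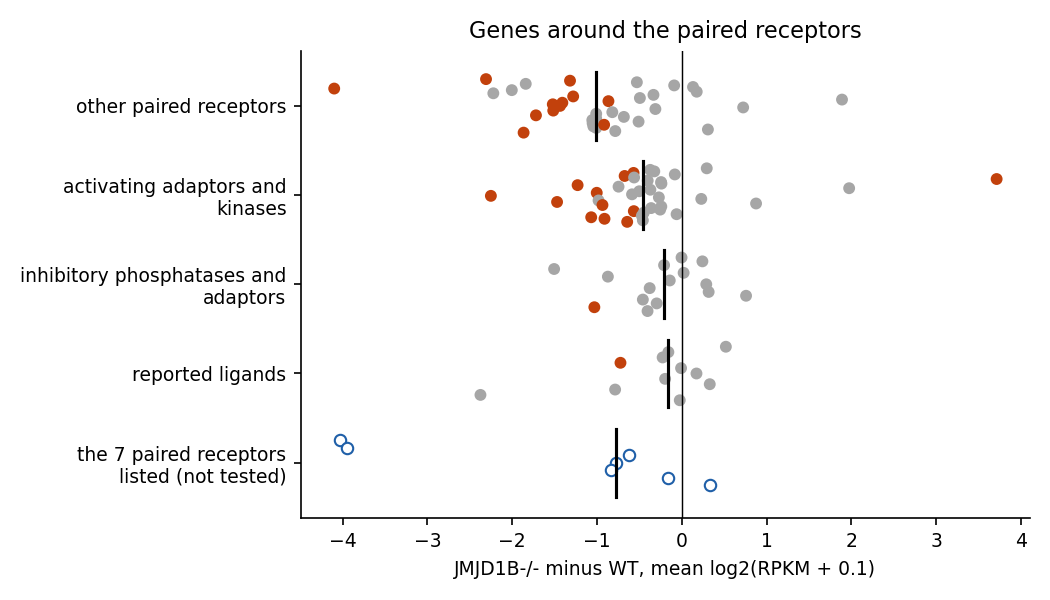
Difference of mean log2(RPKM + 0.1), JMJD1B-/- minus WT, for each gene of 4 lists around the receptors and for the 7 paired receptors (open circles, not tested). Orange points have an unadjusted p under 0.05 in limma, grey points do not, and black bars are medians, which lie at −1.01, −0.45, −0.21, −0.16 and −0.78 from top to bottom.

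Marker lists of blood cell types that carry these receptors differed in how many of their genes were called between the genotypes. Over all genes tested, 22.7% lay lower in the knockout without overlap, and 6.33% were called lower and 3.81% higher in limma. Gata2 of the basophil list is also in the stem and progenitor list. In all 13 basophil markers tested the knockout libraries lay below those of WT, and 12 markers were called lower in limma. Their summed level was 654 and 726 RPKM in WT replicates 1 and 2, against 178 and 99.9 RPKM in those of the knockout. Prss34, their most abundant gene, fell from 246 and 258 RPKM in WT to 30.6 and 19.9 RPKM (adjusted p = 0.00637 in limma). Of 6 mast cell markers tested, 4 were called lower, and all 4 (Cpa3, Hdc, Ms4a2 and Fcer1a) are also in the basophil list. The markers that are not, Kit and Mitf, were not called. The summed level of the mast cell list was 194 to 199 RPKM in WT and 93.2 to 107 RPKM in JMJD1B-/- HSPCs. Of the 14 mast cell markers of the list, 7 are in the table, and the mast cell protease gene Mcpt2 is listed at 0 in 3 libraries and at 1.55 RPKM in JMJD1B-/- replicate 1 (named after its values were seen). Kit, the stem cell factor receptor that mast cells share with progenitors, had 66.9 and 62.5 RPKM in WT and 51.6 and 92.7 RPKM in JMJD1B-/- HSPCs. Among lists of other cells, 7 of 11 neutrophil lineage markers were called lower and 2 higher, with sums of 308 and 211 RPKM in WT and 101 and 59.8 RPKM in JMJD1B-/- HSPCs. Those called higher were S100a8 and S100a9, with log2 differences of 0.70 and 2.17 (named after their values were seen), so the list did not move in 1 direction. Of 15 monocyte and macrophage markers, 7 were called lower and 0 higher, with sums of 227 and 231 RPKM in WT and 183 and 57.7 RPKM in the knockout replicates. In the neutrophil lineage list 1 gene passed after adjustment, Prtn3, a granule protease (adjusted p = 0.04998 in limma, named after its values were seen). None of the mast cell list or of the monocyte and macrophage list passed after adjustment. The 9 eosinophil markers had 0 calls, and their sum, most of it Prg2, was higher in replicate 1 than in replicate 2 of either genotype. The marker lists were written with earlier results of these libraries known, and their part in the values of the receptors was not tested.

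The counts below stand beside 6.33% of all genes called lower and 3.81% called higher. Of 14 stem and progenitor markers, 7 were called lower, with sums of 366 and 336 RPKM in WT and 209 and 256 RPKM in JMJD1B-/- HSPCs. Of 14 erythroid and megakaryocyte markers, 8 were called higher and 3 lower, and their sums were 1073 and 1243 RPKM in WT and 1541 and 2244 RPKM in JMJD1B-/- HSPCs. B cell markers were low, with 2 of 9 listed and sums of 0.766 to 3.73 RPKM. Of the other lists, 1 of 9 T and NK cell markers was called lower and 2 higher, and 2 of 7 stroma and endothelium markers were called lower, with sums of 40.2 and 70.6 RPKM in WT and 24.6 and 11.3 RPKM in the knockout.

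**Figure D5:**
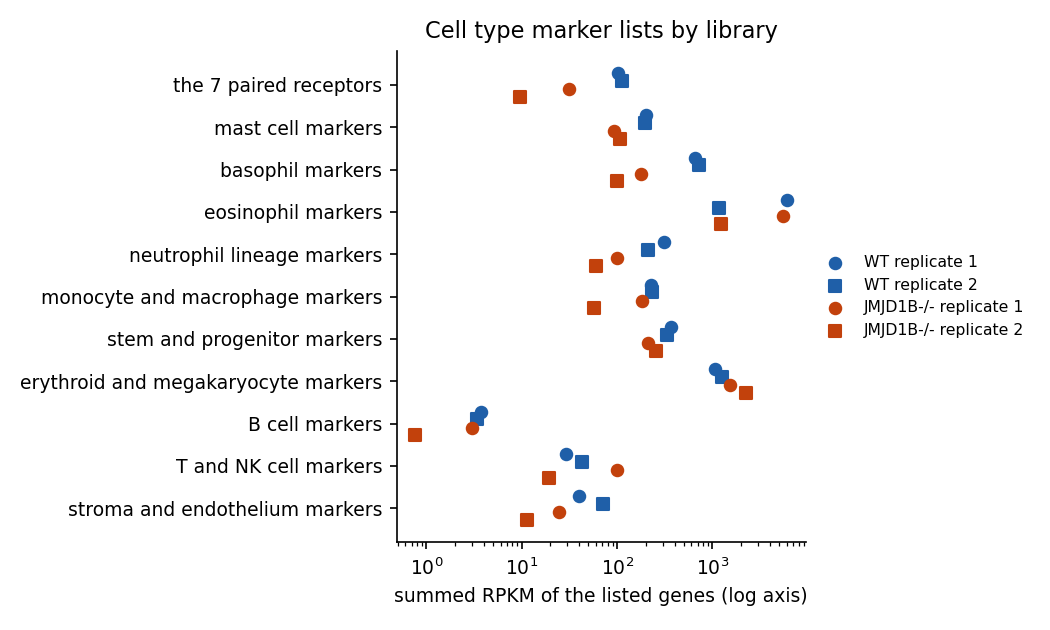
Summed RPKM (log axis) of the listed genes of each cell type marker list, and of the 7 paired receptors, in each HSPC library, with blue for WT, orange for JMJD1B-/-, circles for replicate 1 and squares for replicate 2. The 7 receptors sum to 101 and 113 RPKM in WT and to 31.3 and 9.52 RPKM in JMJD1B-/-. The sums of the basophil, the monocyte and macrophage, and the stroma and endothelium lists put the libraries in the same order as the receptors.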

How the data were processed

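RPKM values of the 4 RNA libraries were deposited as a single table, to which the authors had added 1, and this 1 was subtracted. The labels name polyA RNA and a TruSeq kit, and the submitters' processing notes name TopHat2, Novoalign and build mm9 without roles. The counting program and annotation are not given in the sources used here. The table holds genes that reach 1 RPKM in some library. Entries sharing a name were averaged (42 names). Depth was estimated from whole-number ratios between libraries in genes with few reads and from RefSeq lengths (43 genes gave 1 depth within 0.2%).

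Genes with a mean of at least 0.5 RPKM (11863) were tested with limma 3.58.1 (R 4.3.3) on log2(RPKM + 0.1), with a trend, two-sided tests and Benjamini-Hochberg adjustment, after tests on simulated data. Such fold changes understate the change of low genes. With 2 libraries per genotype, p-values measure only the spread between these samples. Python 3.11.15, numpy 2.4.6, pandas 2.3.3 and matplotlib 3.10.9 were used.

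The members, lists and tests were chosen with earlier results of these data known. Named genes were all members, up to 4 called genes per direction in each pathway list, the 6 genes nearest to Lilrb4 and abundant markers. Promoters came from RefSeq (GRCm38.p6). Another 31 samples, of ChIP-seq, did not enter. Alternatives were other pseudocounts, filters, scalings and tests, a replicate term, summed entries and leaving out each library.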

Additional observations from a re-analysis of the deposited data

How the results depend on the processing

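With 2 libraries per genotype and an estimated 6110000 reads in JMJD1B-/- replicate 1, low genes rest on few reads. Cd300lb reversed with quantile normalization (0.20). With each library left out, the differences lay between −1.49 and 0.25 for Lilrb3, −1.27 and 0.94 for Cd300lb, and −0.88 and 1.54 for Cd300lf. Genes called lower and higher numbered 177 and 123 without WT replicate 1, 272 and 250 without WT replicate 2, 1309 and 1258 without JMJD1B-/- replicate 1, and 1819 and 727 without JMJD1B-/- replicate 2, the lone sample being assumed to vary like the other genotype. Under the same omissions, the calls ranged for adaptors, kinases and phosphatases from 3 to 23 and from 1 to 6, other paired receptors from 3 to 26 and from 0 to 8, and ligands from 1 to 2 and from 0 to 1. The gene-by-gene Student test called 5 adaptors, kinases and phosphatases lower and 0 higher, and 2 other paired receptors. limma without trend called 6 of the former and 2 ligands lower, and quantile normalization called 2 of the former higher and 7 other paired receptors lower. The causes were not tested. Quantile normalization moved the split of all calls from 751 lower and 452 higher to 714 and 671. The replicate numbers did not pair the libraries by the labels, and the deviations of same-numbered libraries correlated at −0.054 over genes. A replicate block raised all calls from 1203 to 1485 and those past adjustment from 5 to 256, and gave 3 adjusted calls among the other paired receptors and 7 among the adaptors, kinases and phosphatases (1 in each with a pseudocount of 1), and 1 among the ligands. In this balanced layout a replicate term cannot change the differences of the members.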
